A study of Mus musculus with 2 samples.

Results

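The genes considered here set the strength and duration of NF-κB signalling: NF-κB subunits, IκB proteins, the kinases and adaptors that release NF-κB from them, ubiquitin editors, and the RNA-binding proteins that destroy inflammatory mRNA. They were selected by name from a list of 49 genes, all of which matched the annotation. The list and the classes used below were chosen with earlier results of these data known, so no share was tested. A peak was given to the protein-coding gene with the nearest transcription start site (TSS), up to 100 kb from the peak centre. By this rule 28 of 2537 PPARγ peaks belonged to 16 of the 49 genes.

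The peaks come from mouse TH2 cells, helper T cells that drive type 2 immunity. Naive CD4+ T cells of strain C57BL/6J were activated, polarised to TH2, and transduced on days 1 and 2 with a retrovirus that expresses Pparg with a TY1 tag. Chromatin was harvested on day 4. The study holds 1 ChIP library, made with an antibody against TY1, and 1 input library made from the same kind of cells without antibody. The experiment was repeated, per the series text, but 1 replicate was used. The map therefore shows where the introduced receptor sat, in cell cultures that were all given the vector. The file header gives 10229438 tags, 54617 of them in peaks, or on average 21.5 tags per peak. The file gives no strength for a single peak and no expression values, so the cell type was not checked against markers, and a peak says nothing here about whether its gene was expressed.

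NF-κB is a family of dimeric transcription factors held inactive by IκB proteins. Receptors of antigen, cytokines and microbial products recruit adaptors and ubiquitin ligases, whose ubiquitin chains activate the kinases that mark IκB proteins for destruction. NF-κB then induces many of its own brakes, among them IκB proteins, deubiquitinases and mRNA decay factors. PPARγ is a nuclear receptor that binds DNA with its partner RXR at the DR1 element, in which the 6-base half-site AGGTCA is repeated in the same orientation with 1 base between the copies. In immune cells PPARγ is known for restraining inflammatory gene expression.

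Of the 49 genes, 16 had a peak, or 32.7% (exact 95% binomial interval 19.9 to 47.5). The same rule gave a peak to 7.68% of all 21851 protein-coding genes. Several peaks at 1 gene were also frequent: 9 of the 49 genes had 2 or more peaks, against 1.52% of all protein-coding genes. A peak within 10 kb of a TSS was found at 5 of the 49 genes, against 3.38% of all protein-coding genes. The genes also had more sequence in which a peak could fall. The stretch nearest to a gene's own TSS, limited to 100 kb on each side, had a median of 81.7 kb for the 49 genes and 47.4 kb for all protein-coding genes. Per Mb of such sequence there were 6.11 peaks at the 49 genes and 1.35 at the other protein-coding genes. Accessible chromatin and gene expression were not measured, and their part in these shares was not tested. All intervals cover counting error only.

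To compare activators with inhibitors, 20 genes were classed as activators of NF-κB signalling and 20 as inhibitors of it or of the mRNA it induces. The other 9 have roles that depend on the context. A peak was assigned to 4 of 20 activators (20%, interval 5.73 to 43.7) and to 9 of 20 inhibitors (45.0%, interval 23.1 to 68.5). Both shares were above the 7.68% of all protein-coding genes, but the interval of the activators includes that value, and the intervals of activators and inhibitors overlap. Of the context-dependent genes, 3 of 9 had a peak (33.3%, interval 7.49 to 70.1, which also includes 7.68%). The activators held 7 peaks (4.18 per Mb of their nearest sequence), the inhibitors 16 (8.46 per Mb) and the context-dependent genes 5 (4.93 per Mb). The median stretch of nearest sequence was 61.5 kb for activators, 82.5 kb for inhibitors and 119 kb for context-dependent genes. The difference of -25 percentage points, activators minus inhibitors, was not tested, as there is 1 library. When noncoding genes could also claim a peak, 10 of the 49 genes (20.4%, against 4.84% of all protein-coding genes) and 5 of the 20 inhibitors had one, and the difference was -10 percentage points.

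**Figure D1:**
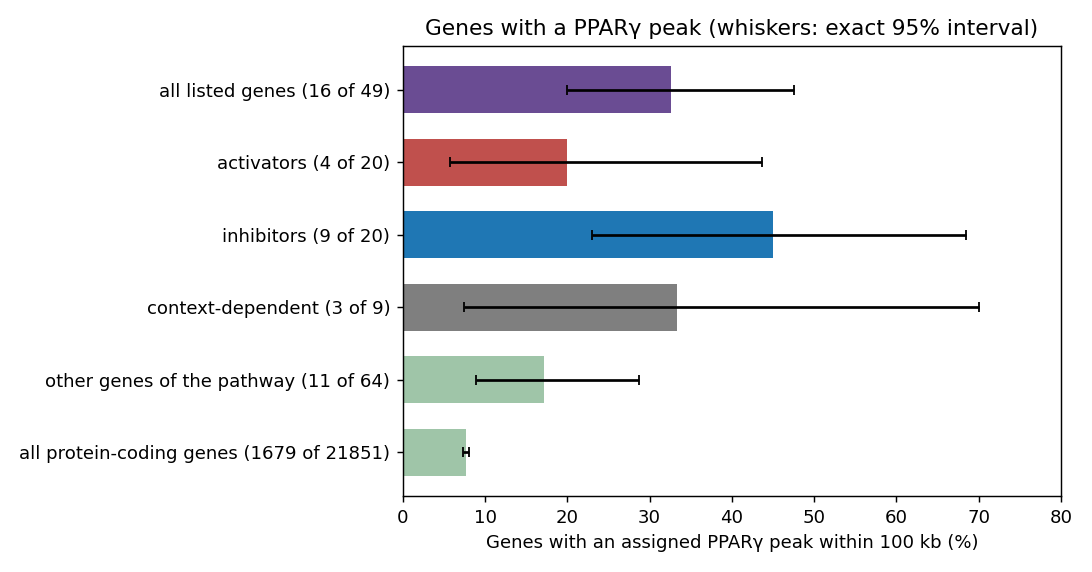
Share of genes with an assigned PPARγ peak within 100 kb (x axis, %), for all 49 genes, for the 3 classes, for 64 other genes of the same pathways and for all protein-coding genes; whiskers are exact 95% binomial intervals. The activators (20%), inhibitors (45.0%) and context-dependent genes (33.3%) are all higher than the 7.68% of all protein-coding genes, but their intervals overlap one another and those of the activators and context-dependent genes include 7.68%.

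Among the subunit genes, Nfkb1, whose product is processed to a DNA-binding subunit of NF-κB, was the only one of 5 with a peak. The interval of this share (20%, interval 0.505 to 71.6) includes the 7.68% of all protein-coding genes. The 2 Nfkb1 peaks lay in intergenic sequence 30.7 kb (chr3:135722129-135722301) and 41.5 kb (chr3:135732951-135733123) upstream of the TSS. Neither held a DR1 or AP-1 match. AP-1 here means TGACTCA or TGAGTCA, the site of the FOS and JUN factors that T cell activation induces. Rela, the gene of the main activating subunit, had its nearest peak at 165 kb, and Relb, the subunit gene of the noncanonical pathway, at 242 kb. Rel, whose product dominates NF-κB responses in lymphocytes, was just outside the limit at 104 kb. A peak lay 57.8 kb from Nfkb2, but 6.64 kb from the TSS of Mfsd13a, to which it was assigned.

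Of the kinase genes, 3 of 8 had peaks (37.5%, interval 8.52 to 75.5), against 7.68% of all protein-coding genes. They were Map3k14, Ikbke and Map3k8. Map3k14, which encodes the NF-κB-inducing kinase that starts the noncanonical pathway, had 1 peak 2.58 kb downstream of its TSS, inside the gene and in an exon of the noncoding transcript 1700028N14Rik (chr11:103264809-103264981). It was the peak closest to a TSS among the activators. Ikbke, an IKK-related kinase gene, had a peak 21.4 kb upstream (chr1:131300945-131301117), which lay in an intron of its neighbour Srgap2. The kinase genes without a peak include the 2 catalytic IKK subunits Ikbkb (nearest peak at 315 kb) and Chuk (189 kb). The regulatory subunit gene Ikbkg lies on the X chromosome, 17216 kb from any peak. Tbk1 (131 kb), another IKK-related kinase gene, and Map3k7 (283 kb), which encodes the kinase TAK, had no peak either. The adaptors of TAK, encoded by Tab1, Tab2 and Tab3, had none: the nearest peaks lay at 69.8, 1003 and 21028 kb. Nor did the receptor-proximal activators Myd88 (74.4 kb), Irak2 (1714 kb), Irak4 (2167 kb) and Irak1 (16846 kb), which carry signals from Toll-like receptors. The genes Ikbkg, Tab3 and Irak1 lie on the X chromosome, where 1.58% of 948 protein-coding genes had a peak. Without that chromosome 4 of 17 activators had one (23.5%), against 7.96% of all protein-coding genes.

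Of the 6 peaks within 10 kb of a TSS, 5 belonged to inhibitors, which held 16 of the 28 peaks. Of the 2096 peaks assigned to other genes, 804 lay within 10 kb, a larger share than in the 28 peaks or in the 16. Among the inhibitors, 5 of 8 ubiquitin brakes had a peak (62.5%, interval 24.5 to 91.5), against 7.68% of all protein-coding genes. They held 9 peaks in all, and the deubiquitinase genes Tnfaip3, Cyld and Otulin were among them. Sequences of the peaks closest to a TSS in each class and of those with a DR1 match of at most 1 mismatch in 12 fixed bases are shown because they let the receptor's own element be compared between genes. All are the plus strand of mm10, 5′ to 3′, and capitals mark DR1 and AP-1 matches. The DR1 matches at Tnfaip3, Otulin and Peli1 lie on the minus strand, so their half-sites read TGACCT here. Single sites quoted further on are given on the strand of the match, with 4 bases on each side.
Tnfaip3, 60.9 kb downstream of the TSS (chr10:18950988-18951160): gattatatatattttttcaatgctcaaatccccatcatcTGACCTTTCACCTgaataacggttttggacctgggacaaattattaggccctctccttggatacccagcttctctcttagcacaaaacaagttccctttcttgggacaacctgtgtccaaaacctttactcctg
Tnfaip3, 62.5 kb downstream (chr10:18949353-18949525): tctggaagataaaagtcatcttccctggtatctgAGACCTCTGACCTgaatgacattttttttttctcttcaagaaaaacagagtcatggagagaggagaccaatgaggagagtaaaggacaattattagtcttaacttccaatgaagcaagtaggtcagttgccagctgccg
Otulin, 17.8 kb downstream, in an intron (chr15:27612813-27612985): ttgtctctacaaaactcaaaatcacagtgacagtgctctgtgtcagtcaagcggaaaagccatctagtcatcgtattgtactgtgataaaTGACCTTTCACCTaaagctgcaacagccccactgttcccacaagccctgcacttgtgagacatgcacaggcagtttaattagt
Peli1, 23.3 kb downstream of an internal TSS (chr11:21158677-21158849): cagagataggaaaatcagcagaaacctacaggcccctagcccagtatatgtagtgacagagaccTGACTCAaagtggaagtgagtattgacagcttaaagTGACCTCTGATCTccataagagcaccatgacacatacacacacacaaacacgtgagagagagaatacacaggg
Peli1, 11.5 kb downstream, in an intron (chr11:21102736-21102908): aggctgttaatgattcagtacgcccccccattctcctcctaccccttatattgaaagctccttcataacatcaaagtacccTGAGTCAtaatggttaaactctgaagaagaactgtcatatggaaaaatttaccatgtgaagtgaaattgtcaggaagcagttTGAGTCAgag
Cyld, 618 bp upstream, in the promoter (chr8:88696324-88696496): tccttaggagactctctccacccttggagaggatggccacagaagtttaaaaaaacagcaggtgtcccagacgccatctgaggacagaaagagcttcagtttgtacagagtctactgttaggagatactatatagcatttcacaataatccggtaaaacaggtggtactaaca
Map3k14, 2.58 kb downstream (chr11:103264809-103264981): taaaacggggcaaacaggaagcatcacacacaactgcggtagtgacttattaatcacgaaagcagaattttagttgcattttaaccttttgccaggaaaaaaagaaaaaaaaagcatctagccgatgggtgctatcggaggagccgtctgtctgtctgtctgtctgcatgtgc

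Tnfaip3 encodes a ubiquitin-editing enzyme that shuts off NF-κB signalling and is itself an NF-κB target. It had 3 intergenic peaks within 6.33 kb, 56.2, 60.9 and 62.5 kb downstream of the TSS and 45.1 to 51.5 kb past the end of the gene. The peaks at 60.9 and 62.5 kb were 1.64 kb apart, and each held a DR1 match with 1 mismatch. Their centres were 106 and 104 kb from Perp, the next gene. In the first of them the element was AGGTGAAAGGTCA. Otulin, whose product removes linear ubiquitin chains, carried exactly the same 13 bases 10 bp from the centre of its intronic peak. Outside the element the flanks differed, attcAGGTGAAAGGTCAgatg at Tnfaip3 and ctttAGGTGAAAGGTCAttta at Otulin. This 13-base sequence was the best DR1 match in 8 of the 502 peaks with one, which held 294 distinct sequences, and 5 sequences occurred in more peaks. The second Tnfaip3 element was attcAGGTCAGAGGTCTcaga, with its mismatch in the last position. A further Otulin peak (chr15:27589239-27589411) lay 41.4 kb downstream, where the Otulin gene overlaps Ank, and held no DR1 or AP-1 match.

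Cyld, the gene of a deubiquitinase that cuts the chains on which the IKK complex assembles, had the closest peak of all 49 genes, 618 bp upstream of its TSS. It had no DR1, AGGTCA half-site or AP-1 match. A peak in an intron of the neighbouring Nod2, a sensor of bacterial peptidoglycan, lay 28.5 kb from the Cyld TSS and 17.1 kb from that of Nod2. The ABIN adaptor genes, whose products bind ubiquitin and assist the Tnfaip3 protein, differed among themselves. Tnip3 had 2 peaks, 8.38 kb upstream of the first TSS (chr6:65516845-65517017) and 3.99 kb downstream of an internal TSS but 69.1 kb from the first (chr6:65594303-65594475), and each held 1 AP-1 match, actaTGAGTCAtggg and gtgcTGACTCAttct. Tnip1 had 1 peak 9.02 kb from an internal TSS and 15.8 kb from the first (chr11:54947016-54947188), inside the gene and just upstream of the pseudogene Gm12230, with no DR1 or AP-1 match. Tnip2 had its nearest peak at 384 kb. The ubiquitin ligase gene Itch (159 kb) and the deubiquitinase gene Otud7b (196 kb) had no peak.

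Of the IκB genes, Nfkbia, which encodes the IκB protein that is destroyed and resynthesised in each round of NF-κB activation, had a peak 18.5 kb downstream (chr12:55474070-55474242), 15.3 kb past the end of a gene of 3.24 kb. It held the AP-1 match cccaTGACTCAgcac. Nfkbib and Nfkbie, which encode the other classical inhibitors, had none: peaks at 72.5 and 76.4 kb were closer to Fbxo27 and Capn11. Among the atypical IκB genes, whose products act in the nucleus, Nfkbiz had 1 peak 16.5 kb downstream of an internal TSS and 33.2 kb from the first (chr16:55805565-55805737), 5.72 kb past the end of the gene. Further Nfkbiz peaks at 204 and 239 kb were beyond the limit, and no other peak whose nearest TSS was that of 1 of the 49 genes lay past 100 kb. Nfkbid had its nearest peak at 171 kb. Peaks 48.7 and 54.6 kb from Bcl3 were closer to Ceacam16 and Ceacam19. The receptor-proximal inhibitor gene Irak3, the counterpart of the other IRAK kinase genes, was just past the limit at 113 kb, so 0 of 4 Irak genes had a peak.

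Of the mRNA decay genes, 3 of 8 had a peak (37.5%, interval 8.52 to 75.5), against 7.68% of all protein-coding genes. All 3 genes of the Zfp36 family, whose products bind AU-rich elements in cytokine mRNA and recruit the deadenylation machinery, had peaks, 6 in all. None of the 3 Zc3h12 genes, which encode ribonucleases, and none of the 2 Rc3h genes, which encode the Roquin proteins, had one. With so few genes a share of 0 of 3 allows up to 70.8% and 3 of 3 as little as 29.2% (exact 95% intervals). The interval of 0 of 3 includes 7.68%, so no difference between the families is concluded. The Zfp36 family count depends on which genes may claim a peak. When noncoding genes could, 0 of the 8 mRNA decay genes had one, against 4.84% of all protein-coding genes. The nearest peaks of Zc3h12c and Rc3h1 were at 92.6 and 93.9 kb but closer to Rdx and Rabgap1l, while those of Rc3h2, Zc3h12d and Zc3h12a lay at 290, 879 and 975 kb.

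The Zfp36 peak (chr7:28376261-28376433) lay 2.91 kb downstream of the nearest TSS, 0.437 kb past the end of this gene of 3.47 kb, and was centred in repeat-masked sequence. A DR1 match with 2 mismatches, gccaGGGTCAGGGGTCAccca, ended beyond the border of the peak, 90 bp from its centre. A second peak lay 0.928 kb away, 3.84 kb from the Zfp36 TSS and 2.93 kb from the TSS of Plekhg2, to which the rule gave it. It held the DR1 match AGATCAAAGGTCA, with 1 mismatch, 5 bp from its centre, and is shown because it lies next to the Zfp36 peak and holds a DR1 match with fewer mismatches. This peak was chosen after its values were seen.
Plekhg2, 2.93 kb from its TSS (chr7:28375333-28375505): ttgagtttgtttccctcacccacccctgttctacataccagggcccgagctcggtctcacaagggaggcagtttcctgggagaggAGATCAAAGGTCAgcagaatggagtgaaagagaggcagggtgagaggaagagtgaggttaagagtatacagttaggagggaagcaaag

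Zfp36l1 had 2 peaks on opposite sides of the gene. The upstream one at 33.8 kb (chr12:80146695-80146867) held the DR1 match agctGGGCCACAGGTCAaggg with 2 mismatches. The downstream one at 69.3 kb (chr12:80043636-80043808) lay in an intron of the lincRNA Gm36660 and held 2 AGGTCA half-sites but no DR1. Zfp36l2 had 3 peaks, all downstream, at 24.8 kb (chr17:84163093-84163265), 40.0 kb (chr17:84147816-84147988) and 70.8 kb (chr17:84117094-84117266), and no other protein-coding gene had a TSS within 270 kb of any of them. The peaks at 24.8 and 40.0 kb held AP-1 matches, gtttTGAGTCAaagg and agtcTGACTCAgtgg. The first of them also held aggaGGGAGCTTCCtttg, 70 bp from the centre, the only match in the 28 peaks to the κB consensus, the site of NF-κB itself.

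Of the genes with context-dependent roles, Peli1, the gene of a ubiquitin ligase that acts on both IRAK proteins and NF-κB subunits, had 2 peaks. The intronic one held 2 AP-1 matches, 1 of them 2 bp from the centre. The other, 23.3 kb from an internal TSS, 67.5 kb from the first TSS and 8.44 kb past the end of the gene, was the only one of the 28 peaks with both a DR1 match (atggAGATCAGAGGTCActtt) and an AP-1 match (gaccTGACTCAaagt). Nlrc5, known as the transactivator of MHC class I genes, had 2 peaks. The intronic one at 12.9 kb (chr8:94447215-94447387) had neither motif. The upstream one at 20.5 kb (chr8:94413848-94414020) held the DR1 match atgtAGGTGGCAGGTCAgctg with 2 mismatches. Peli2 (572 kb), Tank (616 kb), which encodes a TRAF-binding adaptor, and the ubiquitin ligase genes Birc2 (325 kb) and Birc3 (363 kb) had no peak.

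Over the 49 genes the median distance from a TSS to the nearest peak, whichever gene it belonged to, was 104 kb, against 318 kb for all protein-coding genes. It was 177 kb for the activators, 74.5 kb for the inhibitors and 171 kb for the context-dependent genes. Of the 33 genes without an assigned peak, 8 had a peak within 100 kb that was nearer to another gene, 3 activators, 4 inhibitors and 1 context-dependent gene. When nearer genes were disregarded, 7 activators, 13 inhibitors and 4 context-dependent genes had a peak within 100 kb, and so had 23.5% of all protein-coding genes.

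**Figure D2:**
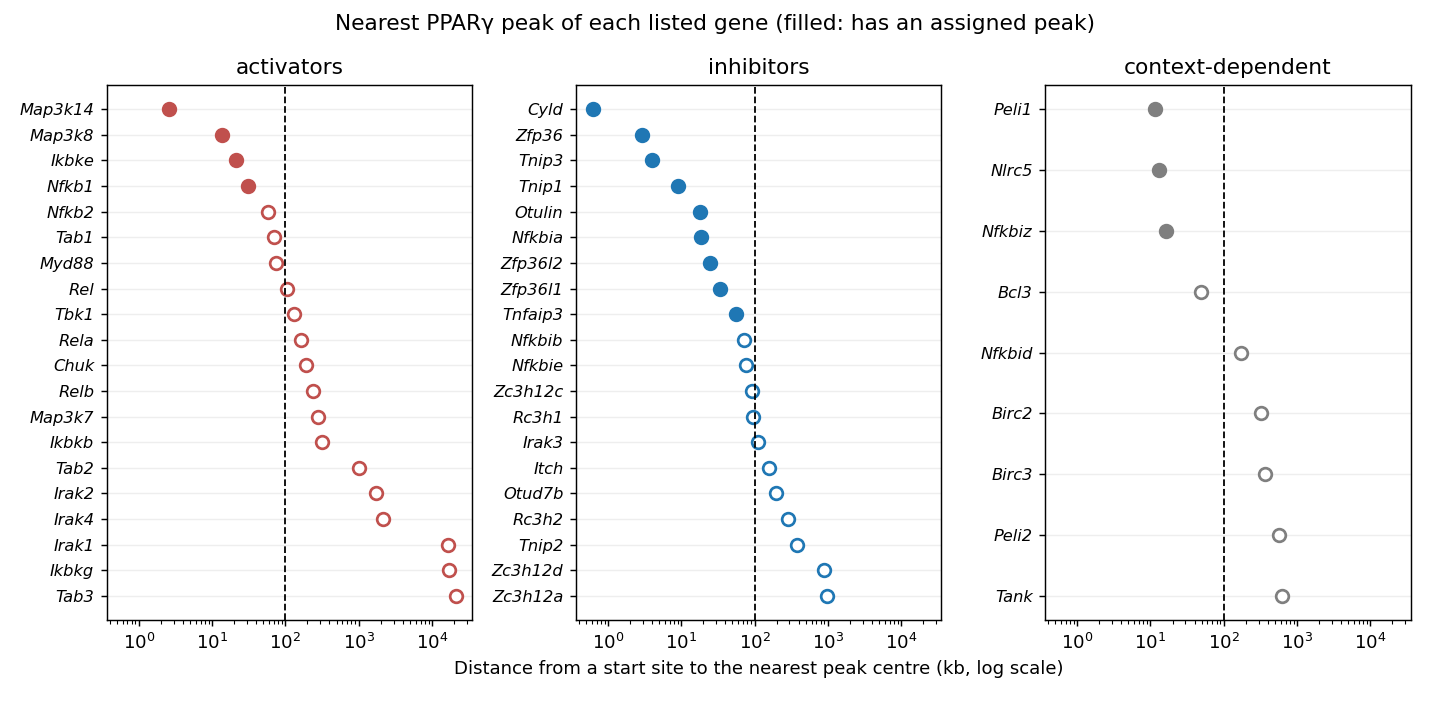
Distance from a TSS to the nearest PPARγ peak centre (kb, log scale) for each of the 49 genes, in a panel per class; filled points have an assigned peak, and the dashed line marks 100 kb. Of 20 activators and 20 inhibitors, 4 and 9 points are filled, and 3 activators on the X chromosome lie beyond 10000 kb.

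The positions of the 28 peaks were set beside those of the peaks of other genes, without a test. Intervals over peaks treat them as independent, although the 28 peaks belong to 16 genes. Of the 28 peaks, 14 lay past the 3′ end of their gene (50.0%, interval 30.6 to 69.4), against 14.1% (interval 12.6 to 15.6) of the 2096 peaks assigned to other genes. The gene body held 7 (25%, against 47.4% of the peaks of other genes) and the upstream side the other 7. Counted once per gene, 8 of the 16 genes had a downstream peak (50%, interval 24.7 to 75.3). Of the 1663 other genes with a peak, 258 had one (15.5%). Genes with 2 or more peaks have more chances to have one, and these were 9 of the 16 genes and 323 of the 1663. The 14 downstream peaks lay 0.437 to 66.8 kb past the gene end, with a median of 28.4 kb. Downstream peaks occurred at 3 of 7 activator, 9 of 16 inhibitor and 2 of 5 context-dependent peaks. The genes with a downstream peak were short, with a median length of 10 kb, as were the other protein-coding genes with one (12 kb), while the median length of genes with any peak was 37.6 kb for both. Intergenic sequence held 17 of the 28 centres (60.7%, interval 40.6 to 78.5), against 31.5% of the peaks of other genes, and introns held 8 (28.6%, interval 13.2 to 48.7), against 55.5%. The median distance to the TSS was 24.0 kb (interval of the median 16.5 to 41.4 kb), against 16.3 kb for the peaks of other genes. It was 39.0 kb for activators, 29.3 kb for inhibitors and 16.5 kb for context-dependent genes. In 8 of the 28 peaks the next gene was less than 2 times as far as the assigned one, so these assignments are the least certain. They were all peaks of Tnfaip3, Map3k8 and Zfp36, and the upstream peak of Nlrc5.

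**Figure D3:**
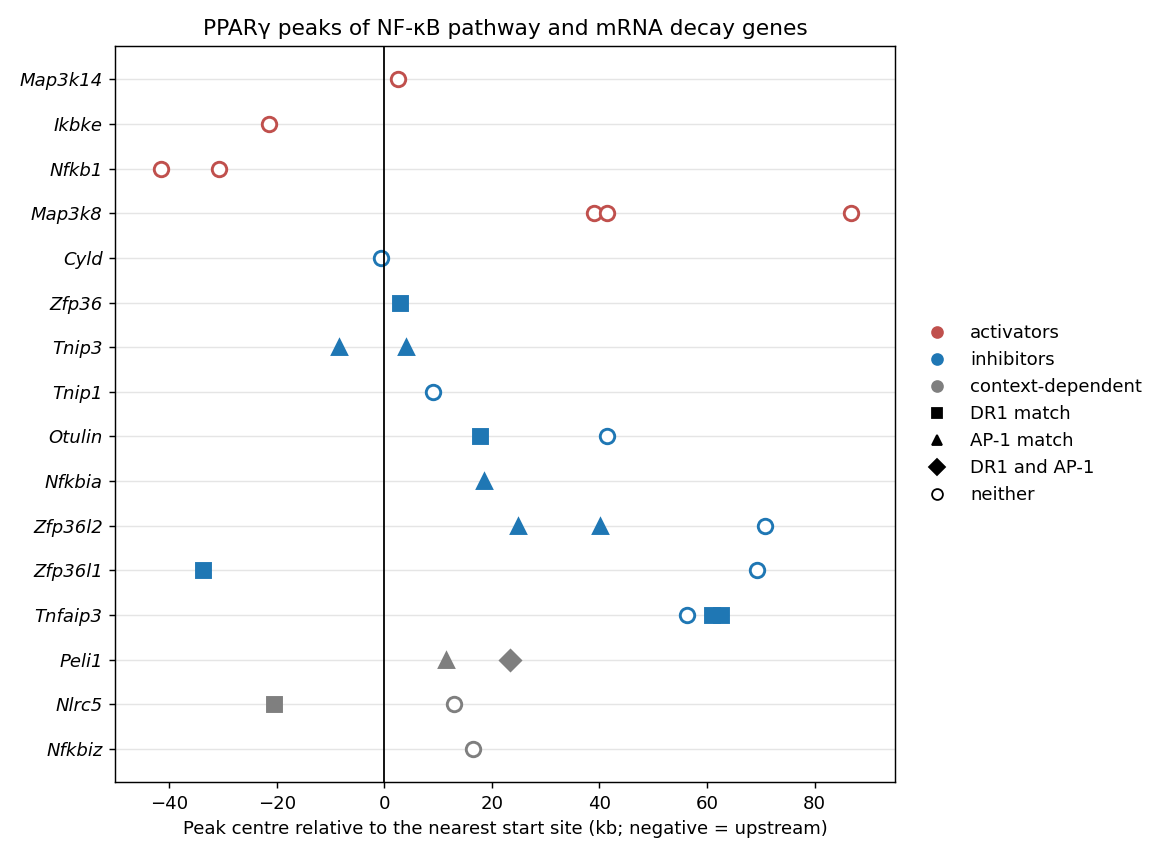
Position of each of the 28 PPARγ peaks relative to the nearest TSS of its gene (kb; negative values are upstream, genes in rows by class); filled squares hold a DR1 match, filled triangles an AP-1 match, the diamond both, and open circles neither. All 7 activator peaks are open circles, 10 of 16 inhibitor peaks are filled, and most points lie to the right of the start site.

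Motif content was read in 200 bp centred on each peak, on both strands. DR1 matches with up to 2 mismatches were present in 7 of 28 peaks (25%, interval 10.7 to 44.9), against 19.8% of all peaks, 3.39% of windows 1 kb from each peak and 2.04% of windows at start sites of protein-coding genes. AP-1 matches were also present in 7 of 28 peaks, against 17.9% of all peaks, 3.65% of windows 1 kb away and 2.80% of windows at start sites. Both intervals include the share over all peaks. The AP-1 comparison turned round with the file rows used: 3 of 18 peaks among the first 1268 rows (16.7%, against 20.7% of all peaks there) and 4 of 10 among the last 1269 (40%, against 15.1%). With at most 1 mismatch 4 of 28 peaks held DR1 (14.3%, interval 4.03 to 32.7), against 6.34% of the other peaks. The 7 DR1 peaks belonged to 6 genes and the 7 AP-1 peaks to 4 genes. They were unevenly spread over the classes: 0 of 7 activator peaks held either motif, whereas 5 of 16 inhibitor peaks held DR1 and 5 others AP-1. Of the 5 context-dependent peaks, 2 held DR1 and 2 held AP-1. With 7 peaks, a share of 0 allows up to 41.0% (exact 95% interval), which takes in the share over all peaks. Neither motif was present in 7 of 7 activator peaks (100%, interval 59.0 to 100), 6 of 16 inhibitor peaks (37.5%, interval 15.2 to 64.6) and 2 of 5 context-dependent peaks, against 65.7% of all peaks. The inhibitor interval ends just below the share over all peaks and the 64.8% of the assigned peaks of other genes. It treats the 16 peaks as independent, although they belong to 9 genes, so nothing is concluded from this small gap. The activator interval includes the share over all peaks, and the 2 intervals overlap. The difference between the classes was not tested, and peaks of 1 gene are not independent.

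In the 7 DR1 matches the downstream half-site was the exact AGGTCA in 5 (71.4%, interval 29.0 to 96.3), against 36.0% of the 495 other peaks with DR1. The upstream half-site was exact in 1 of 7 (interval 0.361 to 57.9), against 29.1%. The spacer base was adenine in 2 (28.6%, interval 3.67 to 71.0), cytosine in 2 and guanine in 3. Adenine made up 53.1% in the other peaks. Each of these intervals includes the share in the other peaks. The matches lay 10 to 90 bp from the peak centre with a median of 41 bp, against 30 bp in the other peaks. The κB consensus was present in 1 of 28 peaks (3.57%, interval 0.0904 to 18.3), against 4.14% of all peaks, 3.07% of windows 1 kb away and 6.30% of windows at start sites. A match to the GATA consensus, the site of the TH2 factor GATA3 and its relatives, was present in 15 of 28 peaks (53.6%, interval 33.9 to 72.5), against 37.6% of all peaks and 32.3% of windows 1 kb away. The interval includes the share over all peaks, and the 15 peaks belonged to 11 genes. STAT sites (TTCNNNGAA) were present in 1 peak, against 9.89% of all peaks, and RUNX sites (TGTGGT) in 4, against 18.6%. The ETS core CCGGAAG was in 0 of 28, against 1.06% of all peaks. A match describes the sequence and is neither a binding site nor a cause. Repeat-masked sequence held 3 of the 28 centres, against 16.2% in the other peaks, and the median GC content was 44.8%, against 43.0%.

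**Figure D4:**
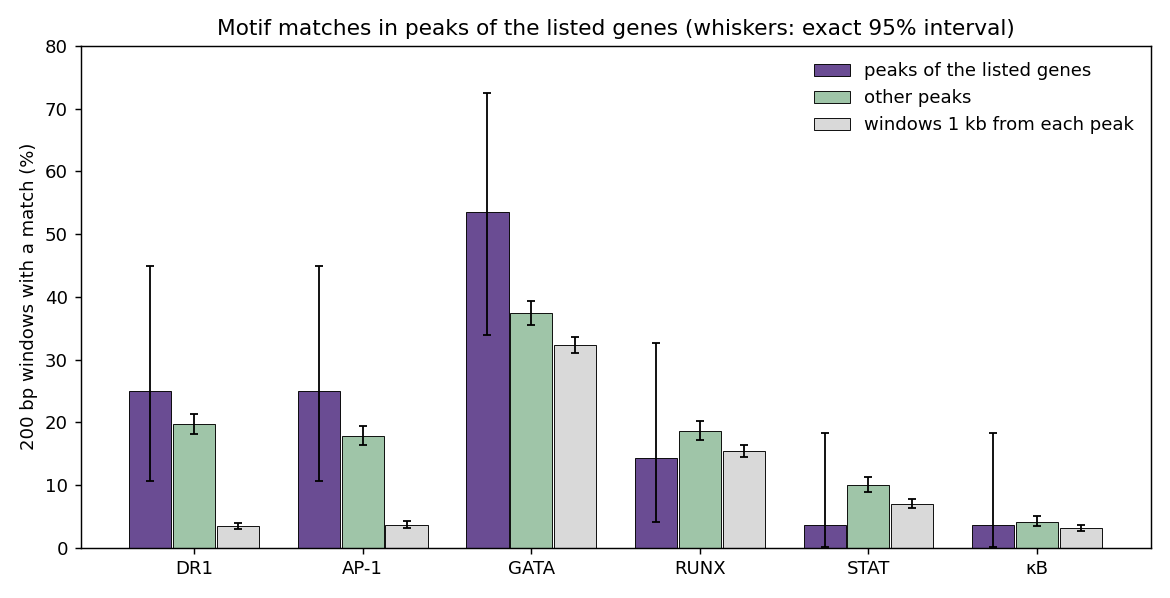
Share of 200 bp windows with a motif match (y axis, %) in the 28 peaks, in all other peaks and in windows 1 kb from each peak; whiskers are exact 95% binomial intervals. DR1 and AP-1 reach 25% each in the 28 peaks, and both lie near the other peaks and above the windows 1 kb away.

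Other genes of the same pathways were compared from a list of 64, of which 30 act in signalling and 34 in mRNA decay. Of these 64, 11 had a peak (17.2%, interval 8.90 to 28.7), against 7.68% of all protein-coding genes. They were 5 of 30 in signalling (16.7%, interval 5.64 to 34.7) and 6 of 34 in mRNA decay (17.6%, interval 6.76 to 34.5). The intervals of the 2 lists taken singly include 7.68%. A promoter peak lay 16 bp from the TSS of Traf1, which encodes an adaptor of TNF receptors and is induced by NF-κB. Traf1 had 3 peaks in all, and its promoter peak held AP-1 matches. Traf3, which encodes the adaptor that keeps the Map3k14 protein low, had a peak 6.47 kb upstream. In mRNA decay, Pan2, a deadenylase subunit gene, had a promoter peak at 52 bp with a DR1 match of 1 mismatch. Btg1, whose product promotes deadenylation, had an exonic peak at 4.19 kb. Intronic peaks lay in the deadenylase gene Cnot6 at 5.87 kb and in Elavl1, which encodes an mRNA-stabilising protein, at 6.92 kb.

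Map3k8, whose product is a kinase held by the Nfkb1 precursor and released on activation, was the activator with the most peaks. Its 3 peaks lay 39.0, 41.4 and 86.7 kb downstream of the TSS and 17.3 to 65.0 kb past the gene end, on chromosome 18, and none held a DR1 or AP-1 match. The first 2 were 2.44 kb apart. The peak at 86.7 kb was the furthest from its TSS of all 28 and lay 100.5 kb from the next gene, Lyzl1. Peaks on the other side, 13.8 and 36.0 kb from the Map3k8 TSS, were closer to Mtpap.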

How the data were processed

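The measurement was 1 ChIP-seq library of TY1-tagged PPARγ in mouse TH2 cells with 1 input library as background, and no values of the input itself were used. Per the submitters' processing notes, Bowtie2 aligned the reads to mm10 and HOMER called peaks, with versions not given in the sources used here. HOMER's factor style was run at a false discovery rate of 0.001 and required 4.00 times the tag density of input and surroundings, per the file headers. The score column that the authors deposited holds 1 in each row and ranks nothing, so peaks were used by position alone, each 173 bp wide. Only uniquely placed tags were kept, per the series text, which leaves out tags that fit several places in the genome.

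Start sites were those of protein-coding transcripts in the GENCODE vM21 basic annotation of GRCm38, the assembly that mm10 names, and sequence came from the RefSeq copy of that assembly. A promoter is 1000 bp upstream to 100 bp downstream of a TSS. DR1 allowed 2 mismatches in 12 fixed bases. The κB consensus has 10 bases with ambiguous letters and was searched exactly, as were the others. GATA was A or T, then GATA, then A or G.

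The 49 genes, the classes, the list of 64 further genes and the motifs were chosen with earlier results of these data known, so no test was made. Named were each of the 49 genes, and, of the further genes, those with a peak within 10 kb, except 1 that is not reported here. Alternatives changed the distance limit, the assignment, the start sites, the window, the mismatches and the file rows used. Matching of motifs and start sites was checked on simulated sequence. Analyses used Python 3.11.15, numpy 2.4.6, scipy 1.17.1, pysam 0.24.0 and matplotlib 3.10.9.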

Additional observations from a re-analysis of the deposited data

How the results depend on the processing

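Of 81 alternative values, 30 moved and 51 did not. A count or difference moved if it changed by over 1.5 times. A share or median moved if it left the main 95% interval, which is wide with 28 peaks. The comparison with all genes or peaks did not enter this label. The AP-1 shares by file rows therefore did not count as moved, although their comparison with all peaks turned round. Only the difference between classes could change sign. The share of activators minus that of inhibitors stayed negative under all 11 alternatives, from -30 to -10 percentage points. These reuse the same peak list, in full or in part, and classes chosen with earlier results known. The unchanged sign is therefore no independent evidence of a difference. Within 10 kb of a TSS, 5 of the 49 genes had a peak, 1 activator, 4 inhibitors and 1 mRNA decay gene, with 6 peaks, 7 other pathway genes and a difference of -15 points. At this limit 3.38% of all protein-coding genes had a peak. When each gene within 100 kb could claim a peak, 47 peaks belonged to the 49 genes. Then 7 of 20 activators (35%), 5 of 8 mRNA decay genes (62.5%) and 19 of 64 other pathway genes (29.7%) had one. The share over all protein-coding genes was 23.5% under this rule. With the nearest of all annotated genes, noncoding included, 10 of the 49 genes, 5 inhibitors and 0 mRNA decay genes had one, with 13 peaks and a difference of -10 points. Here 4.84% of all protein-coding genes had a peak. The first 1268 rows of the file, whose order has no stated meaning, gave 12 of the 49 genes (against 4.33% of all protein-coding genes), 18 peaks, 6 other pathway genes and a difference of -15 points. The last 1269 rows gave 7 of the 49 genes (against 4.19%), 1 activator, 3 inhibitors, 7 other pathway genes, 10 peaks and a difference of -10 points. Counting context-dependent genes as activators gave 7 of 29 with a peak (24.1%), against 7.68% of all protein-coding genes. With 1 mismatch AP-1 reached 75% of the 28 peaks (65.5% of all peaks) and κB 25% (29.1% of all peaks). The κB share was 0 in 100 bp windows (1.81% of all peaks) and 7.14% in 400 bp windows (6.90% of all peaks). It was 0 in the first 1268 rows and 10%, or 1 of 10 peaks, in the last 1269 (4.57% and 3.70% of all peaks there). The DR1 share was 14.3% in 100 bp windows (12.7% of all peaks), and AP-1 was 16.7% in the first rows and 40% in the last (20.7% and 15.1% of all peaks there). The cause of these shifts was not tested, beyond the smaller number of peaks or genes that some settings leave. Start sites of the comprehensive annotation, the omission of chromosome X and the alternatives for the difference between classes were added after seeing the data. A stricter threshold on the authors' calls could not be applied, since the score is the same for all peaks. No paired analysis was possible because there is 1 ChIP library. Depth limits the list: at 21.5 tags per peak on average, weakly bound sites may be missing, and no gene can be called unbound.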
